A study of Mus musculus with 3 samples.

Results

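The genes described here are those of the motile cilium axoneme, the microtubule shaft that makes a cilium or a sperm tail beat. They were chosen by symbol: a symbol starting with Dnah, Dnai, Dnaaf, Rsph, Tekt, Cfap or Drc, or with Spag and a digit, or 1 of 6 further genes (*Dynlrb2*, *Lrrc23*, *Tppp3*, *Tmem212*, *Pifo* and *Armc3*). The rule found 71 genes, with 113 probe sets, of 18193 genes with a probe set. No measured value entered the choice, although these genes were picked as a group with earlier results of these data in view. The tissue was the palate of ICR fetuses, labelled female, whose maxillae were taken at E14 and grown in suspension culture, and its RNA was hybridized to Affymetrix arrays (Mouse Genome 430 2.0) to follow the genes in use while the shelves fuse. There was 1 array before fusion (edge of the shelves, 5 h in culture), 1 during fusion (median tissue, 24 h) and 1 after fusion (median tissue, 60 h). All came from untreated explants without the tongue, so none is a palate that fused in the embryo. The methods describe several samples per stage, and whether their RNA was combined for an array is not given in the sources used here. Stage, hours in culture and the piece of tissue change together and cannot be told apart, and with 1 array per stage no ratio below carries a test, an error between embryos or a p-value.

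A motile axoneme has a ring of doublet microtubules around a central pair. Outer and inner dynein arms slide the doublets past each other, the nexin-dynein regulatory complex links them, and radial spokes carry signals from the central apparatus to the arms. Dynein arms are put together in the cytoplasm by assembly factors, and proteins inside the doublets, tektins among them, stabilise the wall. Multiciliated cells of the respiratory epithelium, which also lines the nasal side of the palate, make these proteins together under the transcription factors Foxj1 and Rfx, the second of which binds a DNA element called the X-box.

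Promoters of 5 members are shown because 4 of them were at least 32.4-fold higher after fusion than before it and hold an X-box half-site close to the start, while the last, *Spag7*, was level and holds none. Each is the RefSeq window of 250 bases before to 50 bases after the annotated start, read 5′ to 3′ on the gene's strand (GRCm38.p6). Capitals mark GTTGCC or GTTNCCNNG on either strand; both describe the same half-site, so their matches overlap. The windows are *Dynlrb2* at chr8:116504765-116505064 (plus strand), *Lrrc23* at chr6:124779678-124779977 (minus strand), *Dnaic2* at chr11:114727169-114727468 (plus strand), *Drc1* at chr5:30281143-30281442 (plus strand) and *Spag7* at chr11:70669367-70669666 (minus strand).
Dynlrb2: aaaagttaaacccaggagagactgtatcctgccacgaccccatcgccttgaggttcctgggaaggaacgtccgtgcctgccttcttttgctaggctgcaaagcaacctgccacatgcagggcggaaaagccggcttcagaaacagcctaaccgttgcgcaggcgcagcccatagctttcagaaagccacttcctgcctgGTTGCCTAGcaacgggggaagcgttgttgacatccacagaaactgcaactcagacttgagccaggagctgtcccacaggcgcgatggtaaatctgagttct
Lrrc23: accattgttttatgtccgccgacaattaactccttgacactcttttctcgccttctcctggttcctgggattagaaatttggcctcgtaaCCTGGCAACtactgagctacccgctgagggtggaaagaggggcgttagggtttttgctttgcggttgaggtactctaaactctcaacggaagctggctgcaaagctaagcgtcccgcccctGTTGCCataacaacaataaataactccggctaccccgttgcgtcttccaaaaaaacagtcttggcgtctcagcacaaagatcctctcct
Dnaic2: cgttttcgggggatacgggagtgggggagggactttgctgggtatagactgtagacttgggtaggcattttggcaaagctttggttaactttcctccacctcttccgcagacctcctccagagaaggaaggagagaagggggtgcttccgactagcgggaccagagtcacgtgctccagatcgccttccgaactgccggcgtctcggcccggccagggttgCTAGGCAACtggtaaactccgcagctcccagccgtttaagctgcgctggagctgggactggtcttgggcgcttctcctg
Drc1: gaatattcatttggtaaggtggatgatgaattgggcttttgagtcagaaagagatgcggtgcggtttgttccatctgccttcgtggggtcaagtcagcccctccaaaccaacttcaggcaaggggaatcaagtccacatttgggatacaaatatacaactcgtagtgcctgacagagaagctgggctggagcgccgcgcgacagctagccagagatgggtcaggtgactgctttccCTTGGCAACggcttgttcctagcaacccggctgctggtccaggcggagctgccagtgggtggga
Spag7: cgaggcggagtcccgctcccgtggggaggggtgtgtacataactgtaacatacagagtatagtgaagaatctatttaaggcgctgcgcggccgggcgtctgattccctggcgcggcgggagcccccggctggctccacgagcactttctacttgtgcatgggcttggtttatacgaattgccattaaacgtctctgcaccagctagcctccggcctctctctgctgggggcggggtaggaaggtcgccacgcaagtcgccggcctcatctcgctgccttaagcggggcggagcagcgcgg
The match begins 51 bases before the start in *Dynlrb2*, 39 bases before it in *Lrrc23* with another on the opposite strand 160 bases before it, 29 bases before it on the opposite strand in *Dnaic2* and 14 bases before it on the opposite strand in *Drc1*. These 4 were picked for their ratios and their matches, so they do not stand for the rest.

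The half-site stood in a larger share of members than of all genes, among members that rose and others alike; the difference was not tested. Windows were found for 60 of the 71 members. GTTGCC stood in a window of 17 of 44 members over 2-fold higher after than before fusion (38.6%) and of 5 of 16 other members (31.3%), against 14.1% of 27025 genes. The longer GTTNCCNNG stood in 22 of 44 (50%) and 7 of 16 (43.8%), against 18.8% of all genes. GTAAACA, a forkhead motif, stood in 1 of 44 (2.27%) and 3 of 16 (18.8%), against 4.05% of all genes. Some genes have more than 1 window. A match is a run of letters and was not tested as a binding site.

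As a group, the axonemal genes were near background before fusion and among the most increased genes after it. Values are MAS5 signals on a linear scale, scaled here to one trimmed mean. The floor of each array is the signal that 95% of 81 probe sets for sensory receptors do not exceed, which gave scaled signals of 19.4 before, 13.3 during and 14.7 after fusion. It was passed by 26 of the 71 members before, 61 during and 64 after fusion. Counted by probe set, 39, 82 and 94 of the 113 member probe sets passed it, against 56.9%, 65.8% and 61.5% of all probe sets. A dimmer signal was set to the floor, which turns the ratio into a bound, written "at least". Each gene is read from its brightest probe set. Fewer cells of a type and less RNA per cell cannot be told apart in such tissue.

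After fusion, 54 of the 71 members (64 of them with a measured ratio) were over 2-fold higher than before fusion and none over 2-fold lower. Of these, 46 were over 4-fold and 29 over 10-fold higher. Over all genes above the floor on at least 1 of these 2 arrays, 12.6% passed 2-fold upward and 9.55% passed it downward. The median log2 ratio of the 64 members above the floor on at least 1 array was 3.14, against -0.09 for all genes. A gene that is above the floor only after fusion can only be seen to rise, which touched 38 of these 64. Among the 26 members already above the floor before fusion, 18 were over 2-fold higher after it (69.2%) and none lower, against 9.61% of 12442 other genes, and their median log2 ratio was 2.16.

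During fusion the rise was partial. Of the 71 members, 62 were above the floor on at least 1 of these 2 arrays and so had a measured ratio. Of these, 25 were over 2-fold higher than before fusion and none over 2-fold lower. Over all genes with a measured ratio, 5.47% were higher and 3.18% lower. The median log2 ratio of 62 members was 0.72, against -0.05 for all genes. Of the 26 members above the floor before fusion, 9 were over 2-fold higher during it (34.6%), against 4.40% of other genes. After fusion 52 of the 65 members with a measured ratio were over 2-fold higher than during fusion and none lower, with a median log2 ratio of 2.54. Over all genes with a measured ratio, 8.72% were higher and 5.06% lower. The 3 comparisons share arrays pairwise and are not independent. Scaling to the poly-A controls changed the balance over all genes to 3.24% higher and 7.49% lower for during over before fusion and to 8.31% higher and 21.4% lower for after over before fusion, while the members over 2-fold higher numbered 20 and 53; with it *Dnah11* during fusion and *Cfap97* after fusion were over 2-fold lower than before. With no floor, 39 members were over 2-fold higher during than before fusion.

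**Figure D1:**
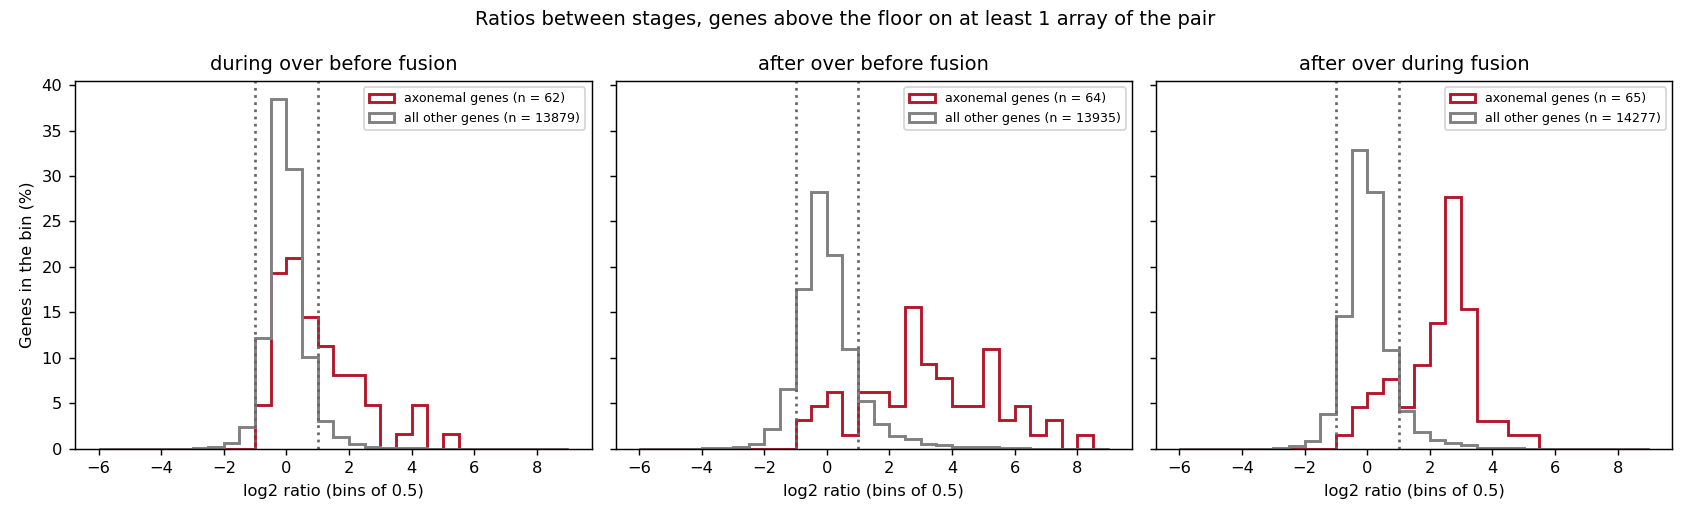
Share of genes (%) by log2 ratio in bins of 0.5 for during over before, after over before and after over during fusion, with the axonemal genes in red and all other genes in grey; dotted lines mark 2-fold. The axonemal genes spread from no difference upward during fusion (62 genes) and lie mostly to the right of the 2-fold line after it (64 genes), whereas the other genes centre on 0.

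Members were frequent at the top of 13999 genes ranked by the ratio of after over before fusion, although most top places belong to other genes and many ranked values are bounds. They were 7 of the first 20, 14 of the first 50 and 27 of the first 200, and 64 of all 13999 ranked genes. *Dynlrb2* ranked 1, *Lrrc23* ranked 3, *Cfap126* ranked 4, *Tmem212* ranked 6 and *Pifo* ranked 10. For during over before fusion members were 4 of the first 20 and 16 of the first 200. For after over during fusion they were 3 of the first 20 and 28 of the first 200. *Dynlrb2*, *Lrrc23*, *Tmem212*, *Pifo* and *Tppp3* (ranked 18 for after over before fusion) were added to the rule by name. That choice was made with earlier results of these data in view, so their high places test nothing. Of the first 20 for after over before fusion, the symbol prefixes alone give *Cfap126* and *Rsph1* (ranked 13).

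**Figure D2:**
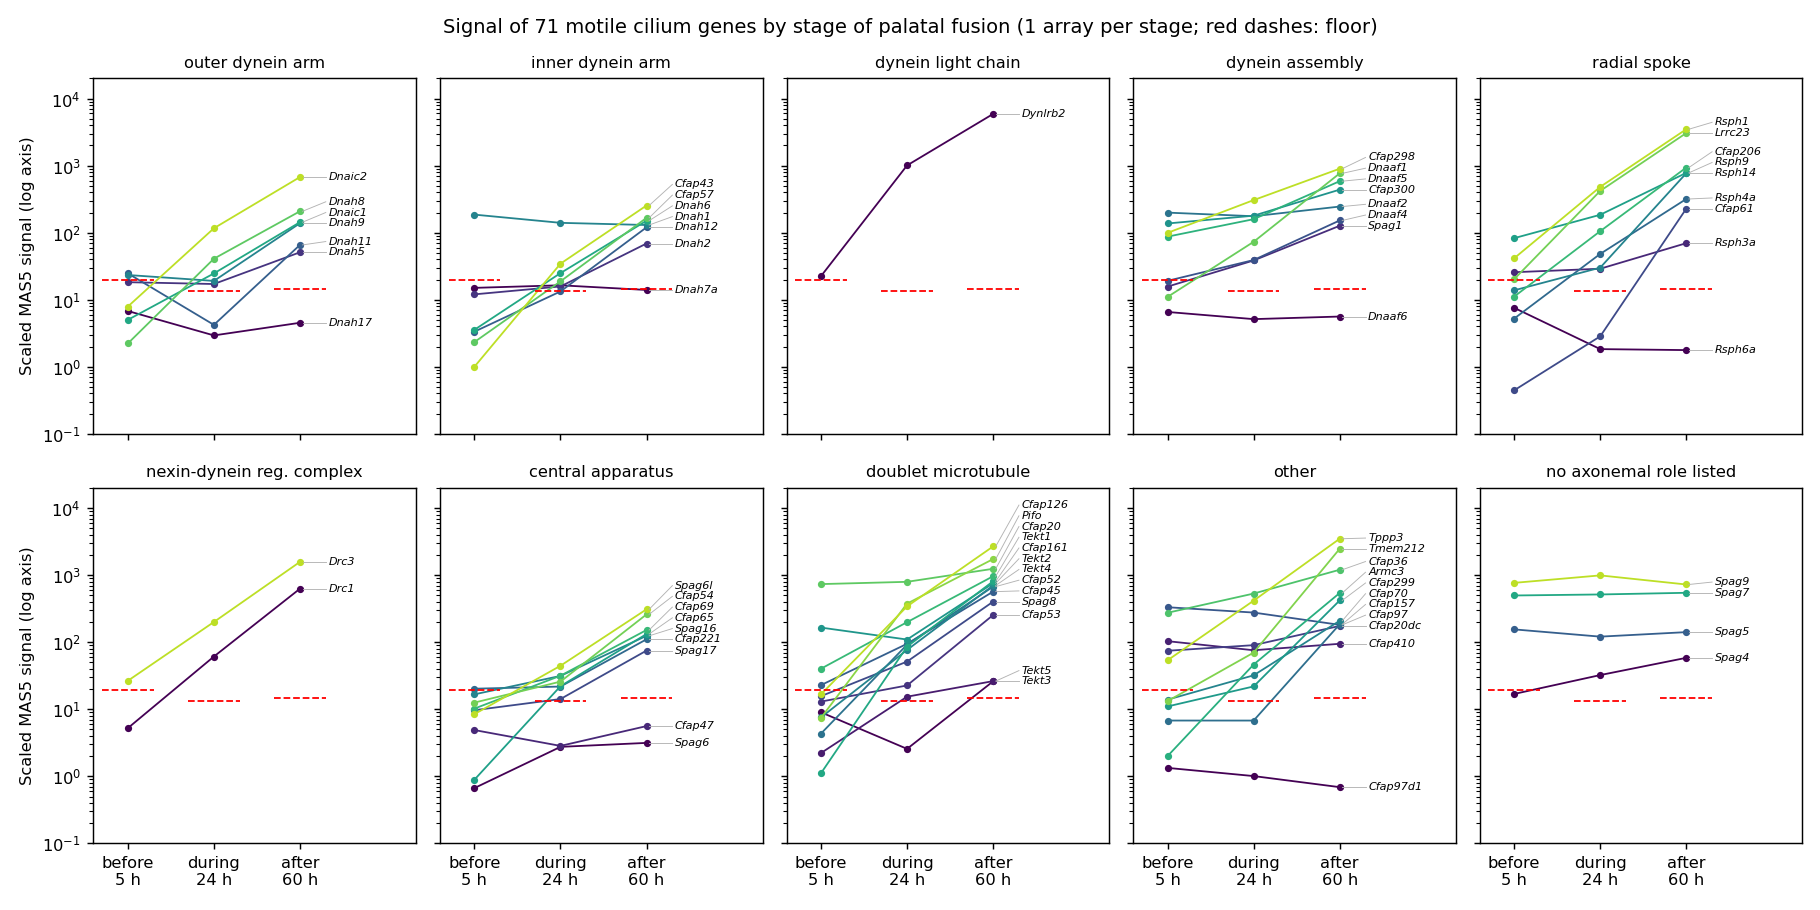
Signals of the 71 genes, scaled and on a log axis, before (5 h), during (24 h) and after fusion (60 h), 1 panel per axonemal part, 1 line per gene and 1 array per stage; red dashes mark the floor of each array. Most lines start at or under the floor and are highest after fusion, and 6 genes stay under it throughout.

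*Dynlrb2*, a roadblock-type dynein light chain, ranked first of all genes for after over before fusion, 5 for during over before and 218 for after over during. The first place depends on the floor: with no floor, the log2 ratios of *Cfap161* (9.51) and *Armc3* (8.08) exceed its 8.04. Its scaled signal was 22.5 before, 1009 during and 5908 after fusion. It was 44.8-fold higher during than before fusion, 262-fold higher after than before and 5.86-fold higher after than during fusion.

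Of 7 outer dynein arm genes, 6 were over 2-fold higher after than before fusion and *Dnah17* was under the floor throughout. *Dnaic2*, an intermediate chain of the arm, had signals of 7.91 before, 117 during and 676 after fusion, a rise of at least 6.01-fold by the first interval and 34.9-fold by the end. Its brightest probe set is of a class that the maker flags for possible cross-hybridization, and its other probe set lay under the floor before and during fusion and at 16.7 after it. The heavy chain gene *Dnah8* had 2.23, 41.0 and 209 (at least 10.8-fold higher after than before fusion). The intermediate chain gene *Dnaic1* had 5.02, 24.7 and 144 (at least 7.40-fold). In these probe sets both lay above the floor during fusion already. The other probe set of *Dnaic1* had 22.5, 12.1 (under the floor) and 125 (5.56-fold after over before fusion). The other probe set of *Dnah8* was under the floor on all arrays. The brightest probe set of *Dnaic1* is of the same flagged class as that of *Dnaic2*. *Dnah9*, a heavy chain of the distal arm, did not differ 2-fold during fusion, with 23.4 before, 19.1 during and 138 after fusion (5.92-fold higher after than before). *Dnah11* and *Dnah5*, heavy chains looked up after the values were seen, were 2.66-fold and at least 2.63-fold higher for after over before fusion; the value of *Dnah5* is a bound and sets no order. *Dnah11* was above the floor before fusion (24.7), under it during fusion (4.22) and at 65.8 after fusion.

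Of 7 inner arm genes, none was over 2-fold higher during than before fusion and 5 were after fusion. Since 6 of the 7 lay under the floor before fusion, a smaller rise during fusion was not detectable. *Cfap43*, which takes part in tethering inner arm dynein, had 1.00 before, 34.5 during and 255 after fusion, at least 13.1-fold higher after than before. *Cfap57*, needed for inner arm assembly, had 2.34, 18.8 and 167 (at least 8.60-fold), but its other probe set was level at 24.5, 19.7 and 25.1 (1.02-fold). For the heavy chain genes *Dnah6* and *Dnah12* the bounds were 7.78-fold and 6.204-fold. *Dnah1* split by probe set. Its brighter one had 186, 140 and 130 (0.6999-fold after over before fusion), and its dimmer one had 2.90, 10.01 and 53.8 (at least 2.78-fold). *Dnah2* was at least 3.56-fold higher, and *Dnah7a* stayed close to the floor at 15.05, 16.4 and 14.005.

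Among the 8 genes for dynein assembly factors, 6 were over 2-fold higher after than before fusion, *Dnaaf2* was level and *Dnaaf6* was under the floor throughout. *Dnaaf1*, a leucine-rich repeat protein, had 11.0 before, 73.2 during and 768 after fusion, at least 39.6-fold higher after than before, although its dimmer probe set had 12.9, 28.3 and 24.1 (at least 1.24-fold). *Cfap298* had 99.5, 306 and 901 (9.05-fold), and a second probe set was 9.42-fold higher. The remaining probe sets of *Cfap298* were under the floor on all arrays. *Dnaaf4* had 19.2, 39.1 and 152 (at least 7.86-fold), but its other probe set had 17.1, 15.8 and 12.6 and passed the floor only during fusion. *Dnaaf5* had 87.4, 159 and 587 (6.72-fold), and its other 3 probe sets were under the floor on all arrays, so that the median over its probe sets gave a log2 ratio of -0.40. *Cfap298* and *Dnaaf5* were thus above the floor before fusion. *Dnaaf2*, which acts on many client proteins, had 199, 176 and 246 (1.23-fold after over before fusion).

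Of 9 radial spoke genes, 5 were over 2-fold higher during than before fusion and 8 were after fusion, with *Rsph6a* under the floor throughout. *Lrrc23*, a spoke protein, had 20.3 before, 420 during and 3066 after fusion, 20.7-fold higher during and 151-fold higher after fusion. *Rsph1*, of the spoke head, had 41.6, 483 and 3495 (11.6-fold and 84.1-fold). Both were above the floor on every array, *Lrrc23* only just so before fusion, where the floor is 19.4. With the floor at the median of each array, the log2 ratios of *Lrrc23* to the array before fusion became bounds of 3.94 during and 6.80 after fusion (4.37 and 7.24 as reported). *Cfap206*, of the spoke base, had 11.1, 105 and 937 (at least 48.3-fold after over before fusion). *Rsph14* had 13.8, 30.1 and 772, at least 39.8-fold higher after than before and 25.6-fold higher after than during fusion, so that most of its signal came late. Of the remaining spoke genes, *Rsph9* and *Rsph3a* were 9.42-fold and 2.71-fold higher after than before fusion, and *Rsph4a* and *Cfap61* had bounds of 16.4-fold and 11.8-fold.

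The nexin-dynein regulatory complex has 2 members here and both rose. *Drc3* had 26.6 before, 201 during and 1581 after fusion, 7.53-fold higher during and 59.4-fold higher after fusion, while its dimmer probe set had 21.8, 34.6 and 26.7 (1.22-fold after over before). *Drc1*, which builds the base plate of the complex, had 5.24, 61.3 and 629 (bounds of 3.16-fold during and 32.4-fold after, both over before fusion).

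Of 9 central apparatus genes, *Spag6l* was over 2-fold higher during than before fusion, and 7 were after fusion, with *Cfap47* and *Spag6* under the floor throughout. Since 6 of the 7 lay under the floor before fusion, a smaller rise during fusion was not detectable, as for the inner arm. With no floor, *Cfap54*, *Cfap65* and *Cfap69* passed 2-fold during fusion too, at log2 ratios of 1.04, 4.63 and 1.63. *Spag6l* had 8.47 before, 44.6 during and 310 after fusion, with bounds of 2.301-fold during and 15.997-fold after it, both over before fusion. *Cfap54* had 12.6, 25.9 and 261 (at least 13.4-fold after over before fusion). The bounds of *Cfap69* and *Cfap65* were 7.85-fold and 6.84-fold. Of the last 3, *Cfap221* was 5.46-fold higher, and *Spag16* and *Spag17* had bounds of 6.43-fold and 3.87-fold. *Spag6* and *Spag6l* are close paralogs, and probe sets can share sequence between them.

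Doublet microtubule genes rose in both intervals: 8 of 13 were over 2-fold higher during than before fusion and 10 of 13 after fusion. *Cfap126*, which also helps position basal bodies, had 16.7 before, 343 during and 2688 after fusion, with bounds of 17.7-fold for during and 139-fold for after, both over before fusion. *Pifo* had 7.47, 377 and 1742, with bounds of 19.4-fold and 89.8-fold. *Cfap161*, a protein of the doublet lumen, had 1.11, 86.0 and 813 (at least 41.9-fold after over before). These 3 were all under the floor before fusion. Tektins differed among themselves. *Tekt4* had 7.58, 76.9 and 703 (at least 36.2-fold after over before fusion) and *Tekt1* had 40.4, 199 and 965 (23.9-fold). *Tekt2* was bright before fusion, at 166, with 110 during and 757 after fusion (4.57-fold), whereas *Tekt3* and *Tekt5* reached only 26.1 and 26.3 after fusion (bounds of 1.35-fold and 1.36-fold). *Cfap20*, a protein of the inner junction, rose but stayed within 2-fold, with 737, 797 and 1247 (1.69-fold, and 1.83-fold in its other probe set). Also of the doublet lumen, *Cfap45* was 24.8-fold higher, and *Cfap52*, *Spag8* and *Cfap53* had bounds of 34.9-fold, 20.8-fold and 13.1-fold. The tektins and these 4 were looked up after the values were seen, apart from *Tekt4*.

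**Figure D3:**
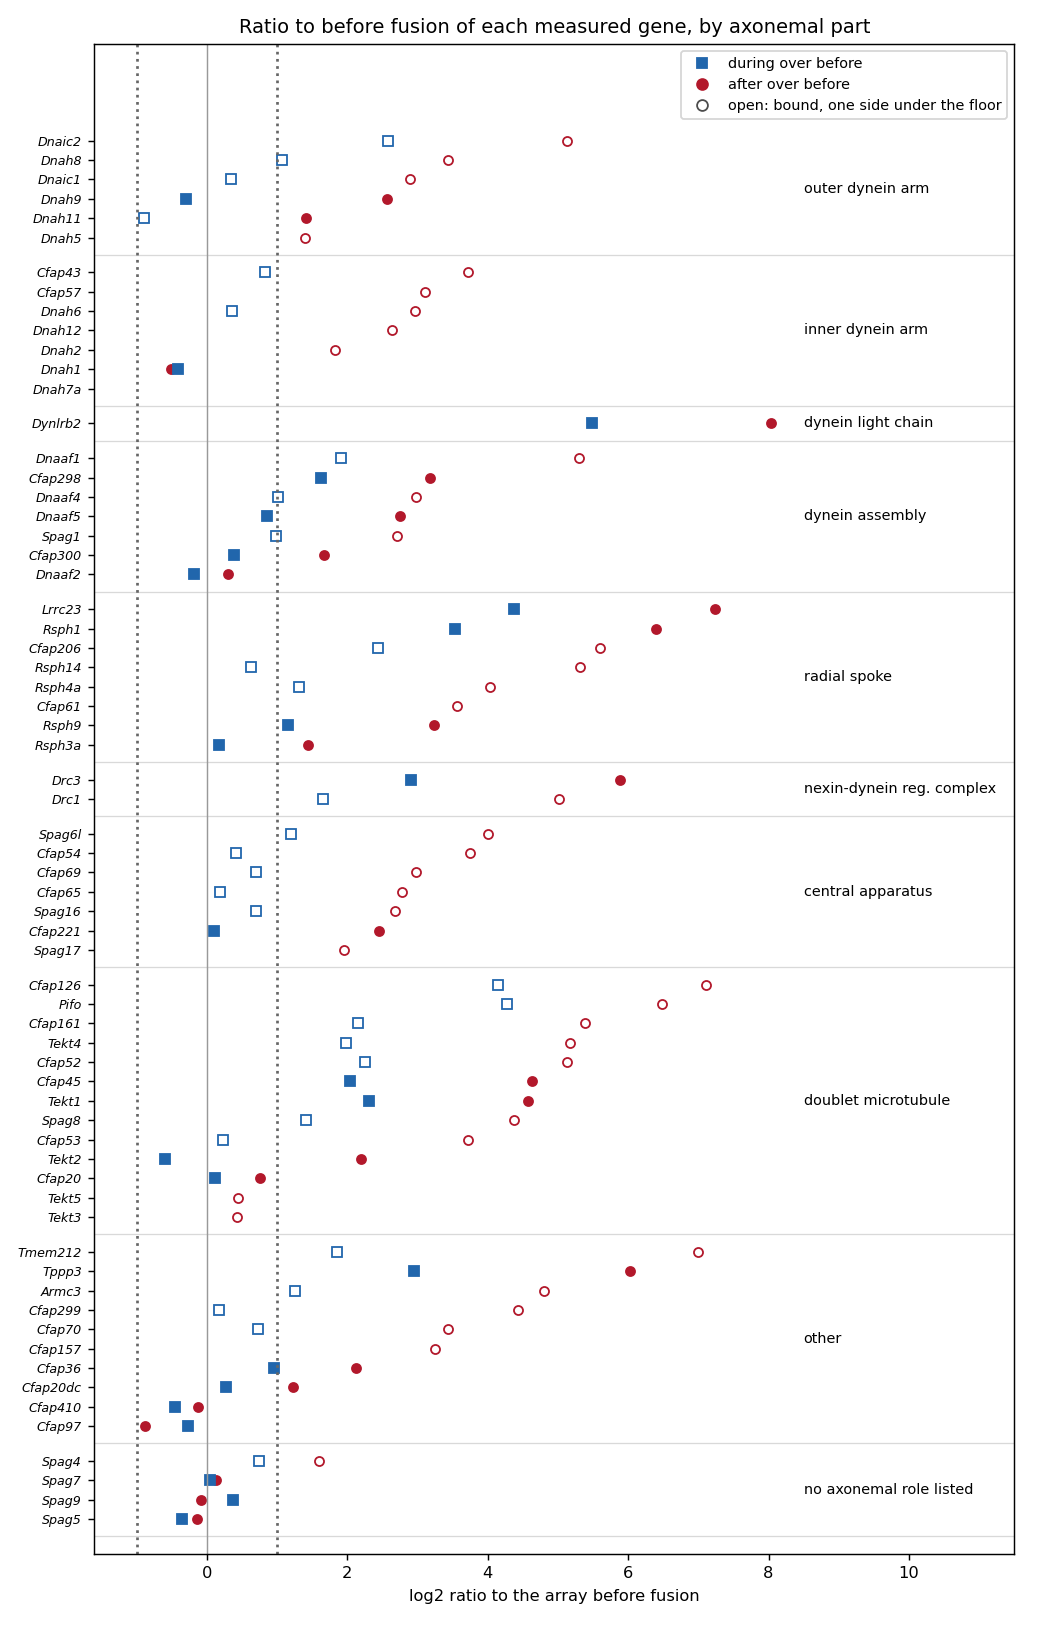
Log2 ratio to the array before fusion of each gene with a measured ratio, by axonemal part; blue squares are during over before fusion, red circles are after over before fusion, open symbols are bounds with 1 side under the floor, and dotted lines mark 2-fold. Bounds that fall on the wrong side of 0 are not drawn, which leaves *Dnah7a* without a symbol. In every part with axonemal genes, red lies right of blue for nearly all genes, with *Dnah1* and *Cfap97* as exceptions left of 0.

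Of 11 members with another or no assigned place in the axoneme, 8 were over 2-fold higher after than before fusion. *Tppp3*, which promotes tubulin polymerisation, had 53.8 before, 417 during and 3500 after fusion (7.75-fold and 65.0-fold). *Tmem212*, a membrane protein, had 13.3, 70.1 and 2479, at least 128-fold higher after than before and 35.4-fold higher after than during fusion. *Cfap299* had 11.0, 21.9 and 421, at least 21.7-fold higher after than before fusion and 19.2-fold higher after than during fusion. For *Armc3*, an armadillo repeat gene, the bounds for after over before fusion were 28.0-fold and 25.1-fold in its 2 probe sets, the dimmer one from signals of 0.446, 26.7 and 486. *Cfap36* and *Cfap20dc* were 4.38-fold and 2.35-fold higher after than before fusion, and *Cfap70* and *Cfap157* had bounds of 10.8-fold and 9.56-fold. *Cfap410* (104, 76.0 and 94.9) and *Cfap97* (333, 277 and 182, 0.546-fold after over before fusion) did not rise, and *Cfap97d1* was under the floor throughout. A dim probe set of *Cfap97* was the only one of 113 member probe sets over 2-fold lower in any comparison (52.7 before, 46.7 during and 19.0 after fusion, 0.361-fold for after over before and 0.408-fold for after over during).

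Of the Spag genes, 4 carry the prefix with no listed axonemal role, and they differed little. *Spag9*, a scaffold of kinase signalling, had 769 before, 994 during and 727 after fusion, and *Spag7* had 499, 516 and 547. *Spag5*, a mitotic spindle protein, had 156, 121 and 142. Only *Spag4*, a nuclear envelope protein of the SUN family, passed 2-fold, with 16.9, 32.4 and 58.6 (at least 3.02-fold after over before fusion). Without these 4, 53 of 67 members were over 2-fold higher after than before fusion.

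Probe sets of 1 gene did not always move together. Of 23 members with at least 2 probe sets measured after over before fusion, 6 had all of them over 2-fold higher and 5 had none past 2-fold. Another 11 had some over 2-fold higher and some not, and *Cfap97* had 1 lower. Of these 11, only *Cfap57*, *Dnah1* and *Drc3* had a probe set under 2-fold that was above the floor on both arrays. In the rest, the probe set not past 2-fold was under the floor before fusion, and such a bound does not show that it failed to rise. Over all 113 member probe sets, 66 of 94 measured were over 2-fold higher after than before fusion. Among all genes, the SD of the log2 ratio between probe sets of a gene was 0.46 for after over before fusion, 0.37 for during over before and 0.44 for after over during. It is the only spread the arrays give, and it is not a spread between embryos.

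The order in time can be read within each gene, as the signal during fusion in percent of that after fusion. For a gene under the floor during fusion the floor was used, so its percentage is an upper limit. For the 54 members over 2-fold higher after than before fusion the median was 15.3%, with quartiles of 11.3% and 21.4%, against 47.9% for 1705 other genes past the same threshold. The gap was smaller among genes over 10-fold higher after than before fusion, where the median was 12.8% for 29 members and 15.8% for 205 other genes. Those other genes include 38 axonemal and motile cilium genes that the symbol rule does not catch and 4 regulators of multiciliated cells. How far the size of the rise accounts for the gap was therefore not tested. Among axonemal parts of more than 1 gene, the median was highest for assembly factors at 28.7% and lowest for the mixed group at 10.2%, with 18.9% for the central apparatus, 18.4% for the outer arm, 13.8% for radial spokes, 13.6% for the inner arm, 13.2% for doublet microtubules and 11.2% for the regulatory complex. The ranges of these parts overlap, apart from those of the regulatory complex (9.73% to 12.7%) and the outer arm (13.8% to 33.6%). That gap is not settled, because *Dnah11* of the outer arm was under the floor during fusion and its 20.2% is an upper limit. Among members above the floor during fusion, *Tmem212* was lowest at 2.83%, followed by *Rsph14* at 3.90%. The values of *Cfap61* (5.83%) and *Cfap157* (7.18%) are upper limits and set no order.

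**Figure D4:**
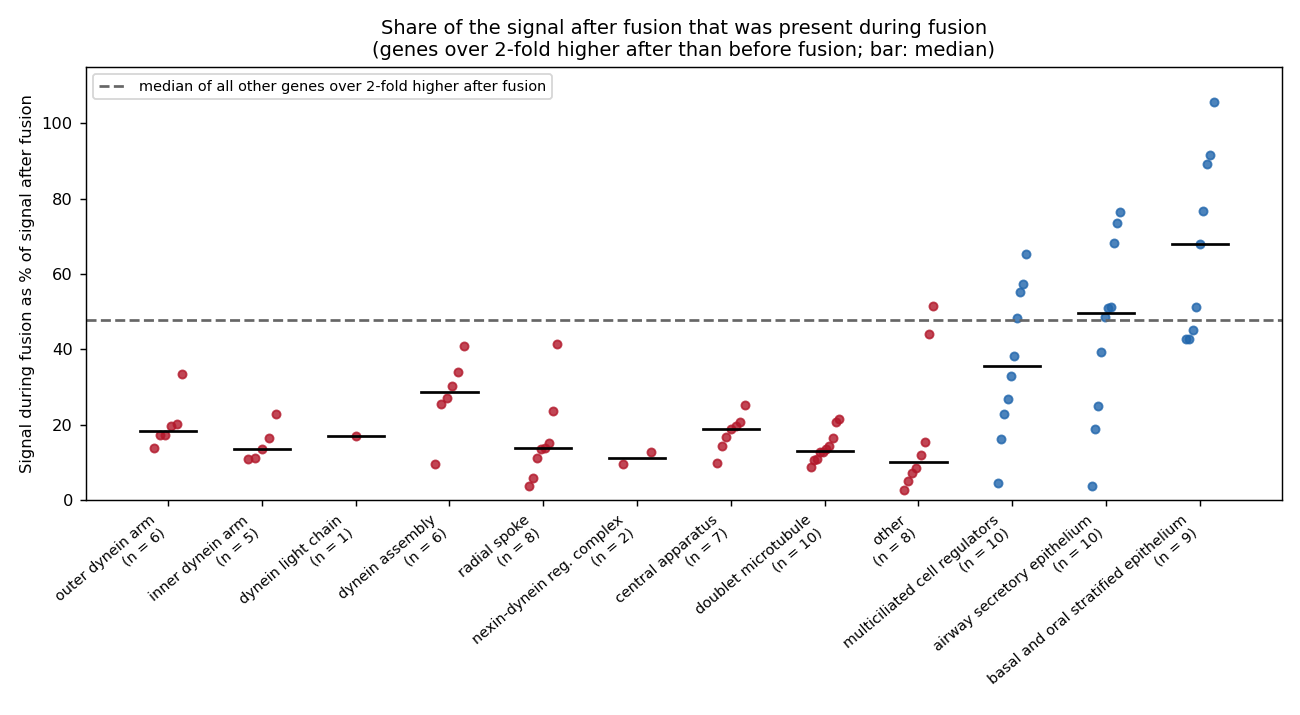
Signal during fusion as a percentage of the signal after fusion for genes over 2-fold higher after than before fusion, 1 point per gene and black bars at group medians; axonemal parts are red and 3 other gene lists blue, and the dashed line is the median of all other genes past the same threshold (47.9%). Red points lie mostly under 30% and the epithelial lists lie higher, at medians of 49.7% (airway secretory) and 68.0% (basal and oral stratified). Points of genes under the floor during fusion are upper limits.

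Regulators of multiciliated cells rose in part, some of them during fusion already. Of 15 found, 6 were over 2-fold higher during than before fusion and 10 after fusion, none lower, and their summed signal was 1606 before, 3731 during and 6763 after fusion. *Foxj1*, the forkhead factor of motile cilia, had 3.90 before, 263 during and 980 after fusion, with bounds of 13.5-fold and 50.5-fold over before fusion. *Ccno* and *Deup1*, which act in making many centrioles, had 25.6, 455 and 1185 and 2.79, 429 and 888. For *Foxj1*, *Ccno* and *Deup1* the signal during fusion was 26.8%, 38.4% and 48.3% of that after fusion, above the upper quartile of the members. *Ccna1*, a cyclin, was late, with 14.3, 27.5 and 608 (4.52%). *Rfx2* (32.995, 31.0 and 192) and *Rfx3* (106, 99.0 and 300), looked up after the values were seen, were level during fusion and 5.80-fold and 2.82-fold higher after than before it. For *Rfx2* the signal during fusion was 16.2% of that after fusion. *E2f5* (124, 165 and 109) and *Tfdp1* (640, 745 and 502), cell cycle factors, stayed within 2-fold. The 10 regulators past 2-fold had a median of 35.7%.

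Axonemal and motile cilium genes that the symbol rule does not catch rose as well. Of 63 genes found on the arrays, 27 were over 2-fold higher during than before fusion and 58 after fusion, none lower, with a median log2 ratio of 3.68 for after over before fusion. *Fam183b* had 1.34 before, 98.3 during and 1482 after fusion (at least 76.4-fold), *Ccdc153* was at least 72.3-fold, the inner arm light chain gene *Dnali1* at least 63.6-fold and *Meig1* at least 61.9-fold higher. At the low end, *Gas8*, a subunit of the nexin-dynein regulatory complex, had 124, 105 and 171 (1.38-fold), and *Dnal4* was 1.45-fold higher.

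Markers of other cells also moved, and their part in the rise of the axonemal genes was not tested. Of 18 epithelial genes 10 were over 2-fold higher after than before fusion and none lower, with a summed signal of 12177 before, 18755 during and 28015 after fusion. Their median log2 ratio was 1.20, with *Cldn3*, a tight junction gene, highest at 6.94-fold and *Esrp2*, a splicing factor, lowest at 0.552-fold. *Epcam* had 1646, 2545 and 2074. Of 14 basal and oral stratified epithelial genes 9 were over 2-fold higher after fusion and none over 2-fold lower, with sums of 7719, 20874 and 26097. *Krt13* was highest (at least 44.1-fold). *Trp63* was lowest, with 544 before, 374 during and 334 after fusion (0.613-fold after over before), followed by *Pitx1* at 0.686-fold. Of 17 airway secretory genes 10 were over 2-fold higher after fusion, with sums of 2447, 13662 and 26516. In that list *Bpifa1* was 136-fold higher, whereas *Scgb1a1*, the defining club cell gene, was under the floor on all arrays. Of 17 mitosis genes none was over 2-fold higher and 3 were over 2-fold lower after fusion, with sums of 9140, 7677 and 7021.

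Genes of male germ cells, which also build an axoneme, were mostly at the floor. Of 20 genes of that kind, 3 passed the floor on the array before, 8 on that during and 6 on that after fusion, and 9 were under it on all arrays, among them *Tnp1*, *Tnp2* and *Akap4*. Only *Spata18* was over 2-fold higher after than before fusion (9.03, 2.39 and 227, at least 11.7-fold). The 6 members under the floor on all arrays, *Dnah17*, *Rsph6a*, *Cfap47*, *Spag6*, *Dnaaf6* and *Cfap97d1*, had signals between 0.669 and 7.58.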

How the data were processed

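RNA of palatal tissue was hybridized to 3 arrays, 1 per stage; the authors computed the deposited intensity values, 1 per probe set on a linear scale, from the scanned arrays with the MAS5.0 algorithm and its background correction, and no scaling target is given in the sources used here. Hours in culture come from the study's description, and the stages from the labels. Arrays were brought to one trimmed mean, with 2% trimmed from either end, by factors of 1.11, 0.918 and 0.986 (order of the stages). A single gene is named for 34945 of 45037 non-control probe sets; symbols were updated by gene ID to GRCm38.p6, and 3 probe sets with several symbols, 1 of them fitting, were left out. A gene was called at over 2-fold. In each axonemal part, the named genes are up to 4 with the largest ratio of after over before fusion and any over 2-fold lower. Up to 3 within 2-fold of the array before fusion and the 6 genes added by name were named too. Others were named after their values were seen. In each list up to 4 of the largest and 2 of the smallest ratios were named. Members, lists and motifs were chosen with earlier results of these data known. No test was made, and the number of arrays limits the precision. The steps were tested on simulated data. Folds were set in bright probe sets only, so the recovery of ratios that are bounds was not tested. Alternatives were 2 other floors, 5 other scalings, the median over probe sets, a 4-fold threshold and the platform's symbols. Python 3.11.15, pandas 2.3.3 and NumPy 2.4.6 were used.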

Additional observations from a re-analysis of the deposited data

How the results depend on the processing

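The members' counts of genes over 2-fold higher ranged over the alternatives from 13 to 39 during over before fusion (25 as reported), from 46 to 57 after over before (54) and from 43 to 54 after over during (52), the lowest in each case at 4-fold. With no floor, 39 were higher and 4 lower during than before fusion, 1 was lower after than before, and the median log2 ratios were 1.16 during and 3.89 after fusion, both over before fusion (0.72 and 3.14 as reported). *Dnah11*, 1 member, was lower during than before fusion after scaling to one median or to the poly-A controls, and 1, *Cfap97*, was lower after than before with the poly-A controls. Taking the median of a gene's probe sets gave 2.48 for after over before and 2.08 for after against during (2.54 as reported). Dim probe sets at the floor enter that median, and it turned *Dnaaf5* for after over before fusion from 2.75 to -0.40. For during over before fusion, *Armc3*, *Dnaaf4*, *Dnah8* and *Spag6l* fell under 2-fold in some alternatives, *Armc3* to a log2 ratio of 0.76 with the floor placed at the median of every array; their bounds lie close to the threshold. The median over probe sets also took *Cfap298* to 0.54 for that comparison (1.62 as reported), and *Cfap298*, *Dnaaf4* and *Dnaaf5* to 0.81, 0.93 and 0.14 for after over during fusion. With no floor, 9 named genes passed 2-fold during fusion that did not as reported, among them *Cfap43*, *Cfap54*, *Cfap65* and *Cfap69*. With the signals as deposited 3 did, *Cfap43*, *Dnaaf5* and *Spag4*, at log2 ratios of 1.11, 1.14 and 1.02. The other settings kept every count within 1.5 times. Scaling shifted the median of all genes by -0.28 (poly-A controls) to 0.28 (as deposited) for during over before fusion, by -0.38 to 0.18 for after over before, and by -0.17 (hybridization controls) to 0.14 (one median) for after over during.

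No paired analysis was possible because each stage has 1 array. Ratios of genes under the floor before fusion are bounds that depend on the floor, and no spread between embryos is known.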
